A study of Mus musculus with 6 samples.

Results

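The 8 genes of the MHC class II presentation pathway named H2-Aa, H2-Ab1, H2-Eb1, Cd74, H2-DMa, H2-DMb1, H2-DMb2 and Ciita were followed in the intestine of newborn mice. They were chosen by gene name, and all 8 were found among the 54532 genes of the deposited tables, each in 1 row. The tissue was newborn intestine of the inbred strain C57BL/6, given NECA for 5 days (3 libraries) or DMSO (3 libraries). NECA, or N-ethylcarboxamidoadenosine, is a stable relative of adenosine that acts on its receptors, and DMSO is a common solvent, here the control. Both groups shared strain, tissue and age (newborn), and the labels name no allele, bowel segment or route. No label tells whether libraries of one group are separate animals, so p-values measure only the spread between these libraries, which may be technical. The title of the series names adenosine, necrotizing enterocolitis and the myeloid-derived suppressor cells of newborns.

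MHC class II molecules are pairs of an alpha and a beta chain that display peptides from engulfed proteins to CD4+ T cells. The invariant chain, encoded by Cd74, holds the empty pair on its way to the endosome, where cathepsins cut it down and the H2-DM pair swaps its last fragment for a peptide. The coactivator Ciita switches these genes on together, without binding DNA itself, through the RFX, CREB and NF-Y factors on a shared promoter module with an X box and a Y box. In bowel the genes are known to be on in dendritic cells, macrophages and B cells, and interferon-gamma can induce them in epithelium. In the C57BL/6 haplotype the gene of the E alpha chain is not expressed, so the E beta chain of H2-Eb1 lacks its usual partner.

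The promoters of the members are shown because the genes share this module. RefSeq promoter sequences (GRCm38.p6) were found for 5 of the 8 members, H2-Aa, H2-Eb1, H2-DMa, H2-DMb1 and H2-DMb2, and for the related H2-Oa, H2-Ob and H2-Eb2. The 250 bases before RefSeq's start of transcription are printed 5′ to 3′ on the gene's strand. For H2-Aa and H2-Eb1 that start is also the gene's edge in GENCODE M21, and for the others it lies inside the gene as GENCODE draws it. Capitals mark GATTGG, the core of the Y box, and AACNNNTGATG, letters of the X box as they stand in several of these genes, on either strand.
H2-Aa (chr17:34287824-34288073, reverse strand): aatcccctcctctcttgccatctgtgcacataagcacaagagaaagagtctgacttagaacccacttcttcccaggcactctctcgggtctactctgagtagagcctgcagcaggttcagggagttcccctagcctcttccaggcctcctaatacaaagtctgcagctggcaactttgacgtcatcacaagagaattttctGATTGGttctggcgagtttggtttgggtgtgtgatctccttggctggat
H2-Eb1 (chr17:34305617-34305866, forward strand): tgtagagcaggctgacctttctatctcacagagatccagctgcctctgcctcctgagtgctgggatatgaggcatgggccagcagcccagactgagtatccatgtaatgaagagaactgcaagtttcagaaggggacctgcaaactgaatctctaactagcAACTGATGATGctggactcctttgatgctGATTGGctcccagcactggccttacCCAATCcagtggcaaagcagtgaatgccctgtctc
H2-DMb1 (chr17:34152941-34153190, forward strand): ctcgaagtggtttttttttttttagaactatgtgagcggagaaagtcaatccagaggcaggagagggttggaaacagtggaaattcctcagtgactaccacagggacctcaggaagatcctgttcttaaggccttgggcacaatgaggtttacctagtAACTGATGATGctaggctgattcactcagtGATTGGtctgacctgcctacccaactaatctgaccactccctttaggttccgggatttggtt
H2-DMb2 (chr17:34144999-34145248, forward strand): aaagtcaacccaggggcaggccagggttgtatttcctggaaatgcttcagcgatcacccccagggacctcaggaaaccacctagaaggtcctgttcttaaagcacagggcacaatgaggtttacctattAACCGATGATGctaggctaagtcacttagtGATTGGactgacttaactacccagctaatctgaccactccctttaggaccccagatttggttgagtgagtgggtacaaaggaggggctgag
H2-Ob (chr17:34238655-34238904, forward strand): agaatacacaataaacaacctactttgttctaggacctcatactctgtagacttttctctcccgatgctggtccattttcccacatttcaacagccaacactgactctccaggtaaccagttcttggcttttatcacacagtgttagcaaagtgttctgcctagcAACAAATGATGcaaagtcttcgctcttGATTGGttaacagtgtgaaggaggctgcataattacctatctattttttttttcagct
The X letters lay 19 bases ahead of the Y letters in both H2-DMb1 and H2-DMb2, 18 in H2-Eb1 and 16 in H2-Ob. H2-Eb1 also held the Y letters once on the opposite strand. H2-Aa, H2-Oa and H2-Eb2 held the Y letters alone, and H2-DMa held them upstream of only 1 of its RefSeq starts. Other spellings of an X box were not searched, so lacking these X letters does not mean lacking an X box. In all 32851 promoters of the table, 14.6% held the Y letters, 0.539% the X letters and 0.0700% both. The X letters were chosen after these promoters had been read, and a match is a description of letters, not of a bound site.

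Per length of transcript, the invariant chain was the most abundant member, and H2-DMb2 and the coactivator were the least. In FPKM (fragments counted per length of transcript and per library size) Cd74 was at 192 ± 42.8 in DMSO and 141 ± 13.2 in NECA (SD, n = 3 per group). The classical chains followed in FPKM, with H2-Eb1 at 87.4 ± 11.6 and 64.2 ± 7.98, H2-Ab1 at 72.1 ± 12.2 and 55.0 ± 7.85, and H2-Aa at 60.4 ± 11.5 and 43.3 ± 4.80. This order from Cd74 to H2-Aa stood in each of the 6 libraries. Of the peptide-exchange genes, H2-DMa was at 9.14 ± 0.725 and 8.65 ± 2.33 FPKM, H2-DMb1 at 7.49 ± 2.06 and 6.10 ± 1.22, and H2-DMb2 at 2.17 ± 1.39 and 0.798 ± 0.208. H2-DMa lay above H2-DMb1 in 5 of 6 libraries, so these neighbours were not separated. Ciita was at 0.991 ± 0.356 and 0.867 ± 0.352 FPKM and lay below H2-DMb2 in 3 of 6 libraries. The strain's missing E alpha gene, H2-Ea-ps, had 0 counts in every DMSO library and in NECA replicate 1, and 1 count in NECA replicates 2 and 3.

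**Figure D1:**
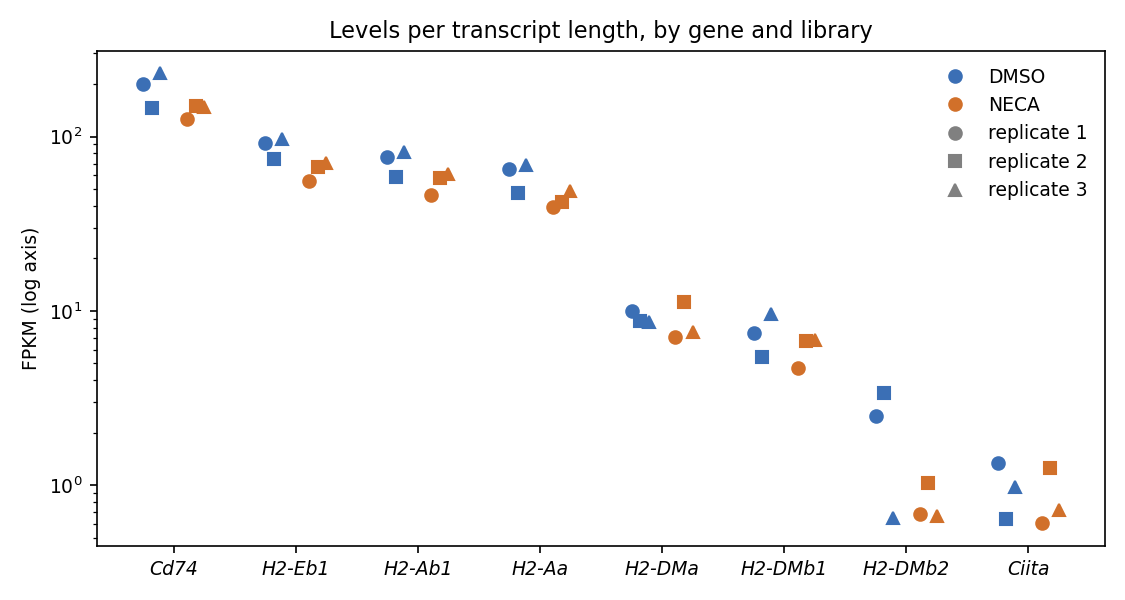
Deposited FPKM (log axis) of the 8 genes in each library, blue for DMSO and orange for NECA, with a marker shape per replicate. Cd74 stands highest in every library, the 3 classical chains follow, and H2-DMb2 spreads most widely.

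Total counts ran from 15531996 to 18065078 per library. NECA replicate 2 stood apart, with a median correlation of 0.960 with the other libraries across genes against 0.978 to 0.989 for the rest, and genes of the mitochondrial chromosome took 1.31% of its counts against 2.80% to 8.39%. Its ileal markers summed to 2881 CPM (counts relative to the TMM-normalised library size) and its proximal bowel markers to 163 CPM, against 252 to 699 CPM and 4701 to 5180 CPM elsewhere. Where leaving out a library moved the fold change of a named gene by over 1.5 times, the value stands beside the result.

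All 8 members had a lower mean in NECA than in DMSO, and none of the differences passed the test. The 4 most abundant, the classical chains and Cd74, were at 71.0% to 75.5% of their DMSO mean. Of 15847 genes tested with edgeR's quasi-likelihood test, 0 (0%) passed an adjusted p of 0.05, and the members' adjusted p ran from 0.738 to 0.910. DESeq2 called 11 genes (0.0694%) and 0 members. Without a filter on low counts 2 of 27067 genes (0.00739%) were called and 0 members. At an unadjusted p under 0.05 stood 5.48% of all tested genes, 3.03% with a lower level in NECA, and 3 of 8 members, all lower: H2-Eb1, H2-Aa and H2-DMb2. The median log2 fold change was -0.43 over the members and -0.01 over all tested genes, of which 51% were lower in NECA. The members share regulators and cells, so their common direction is not 8 independent results. In bulk tissue, fewer cells of a type and less RNA per cell cannot be told apart.

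**Figure D2:**
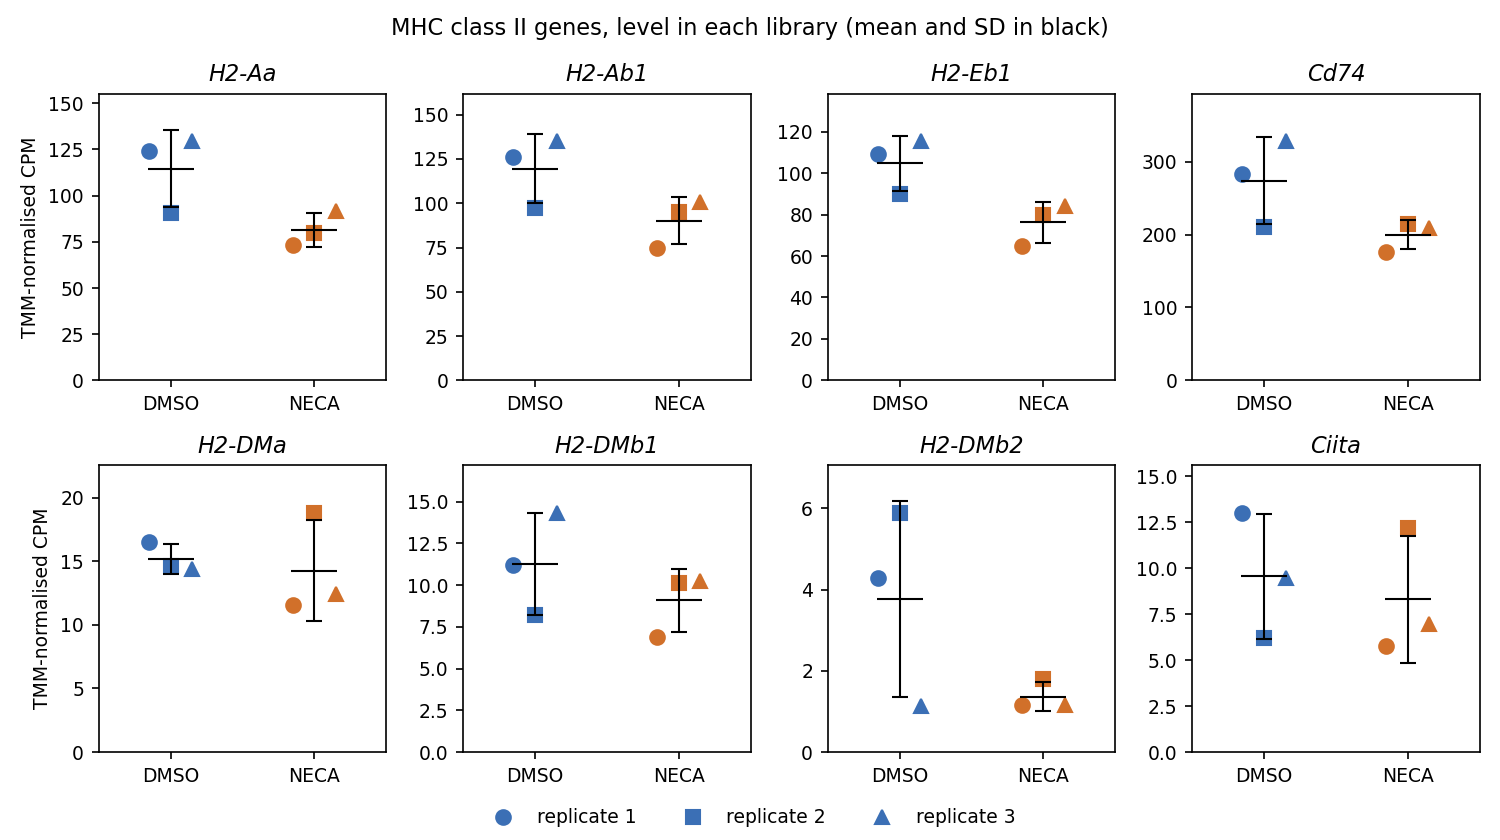
TMM-normalised CPM of each member in each library (axes start at 0), with the mean and SD over 3 libraries in black. H2-Eb1 is the member whose groups do not overlap, and DMSO replicate 2 lies nearest to the NECA libraries in H2-Aa, H2-Ab1, H2-Eb1 and Cd74.

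H2-Aa (ENSMUSG00000036594, chromosome 17, 34282744 to 34287823, GRCm38) encodes the alpha chain of the A molecule. Its level was 124, 90.5 and 129 CPM in DMSO and 73.1, 79.6 and 91.5 CPM in NECA, in replicate order. DMSO replicates 1 and 3 stood above the other 4 libraries, and DMSO replicate 2 lay just under NECA replicate 3. The log2 fold change was -0.49 (SE 0.18, 95% interval -0.91 to -0.08, edgeR adjusted p = 0.738).

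H2-Ab1 (ENSMUSG00000073421, chromosome 17, 34257689 to 34269419) encodes the beta chain that pairs with it. It was at 126, 97.5 and 135 CPM in DMSO and 75.0, 95.2 and 101 CPM in NECA. The groups overlapped through DMSO replicate 2 again, and the log2 fold change was -0.40 (SE 0.18). H2-Eb1 (ENSMUSG00000060586, chromosome 17, 34305867 to 34316674), the E beta chain, was at 109, 89.9 and 115 CPM in DMSO and 64.9, 79.8 and 83.9 CPM in NECA. Here the 3 DMSO libraries all lay above the 3 NECA libraries, with a log2 fold change of -0.46 (SE 0.16, 95% interval -0.84 to -0.08). It was the 1 member of 8 with groups apart and NECA lower, as were 7.16% of all tested genes, and 0 members had groups apart with NECA higher, where 6.49% of genes did.

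Cd74 (ENSMUSG00000024610, chromosome 18, 60803848 to 60812652), the invariant chain, lies outside the MHC. It was at 284, 210 and 328 CPM in DMSO and 177, 214 and 208 CPM in NECA. DMSO replicate 2 sat between NECA replicates 2 and 3, and the log2 fold change was -0.45 (SE 0.21, 95% interval -0.93 to 0.02). With DMSO replicate 3 left out it was -0.30. Each of these 4 genes was highest in DMSO replicate 3 and lowest in NECA replicate 1, a 1.77-fold to 1.86-fold range over the 6 libraries.

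The 4 genes kept nearly fixed proportions from library to library. The FPKM ratio of H2-Eb1 to H2-Ab1 was 1.15 to 1.27 in the 6 libraries, that of H2-Aa to H2-Ab1 0.730 to 0.860 and that of Cd74 to H2-Ab1 2.41 to 2.82. The SD of these log2 ratios over the libraries was 0.05, 0.09 and 0.08, whereas the SD of the log2 level of each gene was 0.30 to 0.34. In NECA replicate 2, the library that stood apart, these ratios were 1.16, 0.730 and 2.61, and its H2-Aa ratio was the lowest of the 6.

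Of the peptide-exchange genes, H2-DMb1 varied least against H2-Ab1, with an FPKM ratio of 0.0931 to 0.117. The SD of the log2 ratio to H2-Ab1 was 0.14 for H2-DMb1, 0.31 for H2-DMa and 1.05 for H2-DMb2. H2-DMa (ENSMUSG00000037649, chromosome 17, 34119541 to 34139101), the alpha chain of H2-DM, was at 16.5, 14.7 and 14.4 CPM in DMSO and 11.6, 18.8 and 12.4 CPM in NECA. NECA replicate 2 was its highest library, the groups overlapped and the log2 fold change was -0.09 (SE 0.22, 95% interval -0.61 to 0.43). The FPKM ratio of H2-DMa to H2-Ab1 was 0.106 to 0.154 in 5 libraries and 0.197 in NECA replicate 2. Without NECA replicate 2 the fold change of H2-DMa was -0.34 (SE 0.17). It was 0.042 with NECA replicate 1, 0.0032 with NECA replicate 3 and -0.038 with DMSO replicate 1 left out. Its annotated exons share 360 of 3448 bases (10.4%) with Brd2, a chromatin reader on the opposite strand. Brd2 was at 162 to 184 CPM in 5 libraries and 209 CPM in NECA replicate 2. Whether counting used strand is not given in the sources used here, so reads of the overlap may count for either gene, and their part in the level of H2-DMa was not tested.

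H2-DMb1 and H2-DMb2 are neighbouring genes for the beta chain of H2-DM. H2-DMb1 (ENSMUSG00000079547, chromosome 17, 34153072 to 34160230) was at 11.2, 8.23 and 14.3 CPM in DMSO and 6.91, 10.1 and 10.2 CPM in NECA, a log2 fold change of -0.31 (SE 0.27). Like the classical chains it was highest in DMSO replicate 3 and lowest in NECA replicate 1. Its fold change was -0.09 with DMSO replicate 3 left out, -0.14 with NECA replicate 1 left out and -0.49 with DMSO replicate 2 left out.

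H2-DMb2 (ENSMUSG00000037548, chromosome 17, 34143307 to 34151555) had 77, 88 and 18 counts in DMSO against 18, 36 and 20 in NECA. In CPM that was 4.30, 5.89 and 1.13 in DMSO and 1.16, 1.79 and 1.15 in NECA. DMSO replicates 1 and 2 were high, and DMSO replicate 3, the highest library for the classical chains, was the lowest of all 6. The log2 fold change was -1.45 (SE 0.57, 95% interval -2.78 to -0.12), and leaving out DMSO replicate 3 gave -1.88, DMSO replicate 2 -0.98. The H2-DMb2 share of the counts of both beta genes was 27.7%, 41.7% and 7.29% in DMSO and 14.4%, 15.1% and 10.1% in NECA.

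In the DMSO libraries the sum of both beta genes was more even than either gene. Summed before the fit, they were at 15.5, 14.1 and 15.4 CPM in DMSO and 8.08, 11.9 and 11.4 CPM in NECA. The groups of the sum did not overlap, with NECA lower, as in 7.16% of all tested genes. Taken alone, each gene had overlapping groups. The log2 fold change of the sum was -0.52 (SE 0.20, edgeR adjusted p = 0.738). The longest coding transcripts of the pair (GENCODE M21, 1404 and 1483 bases) were 96.0% identical over 1045 aligned bases, with a longest shared run of 221 bases. Of the 100-base windows of H2-DMb1, 13.7% occurred unchanged in H2-DMb2. How the authors assigned reads matching both is not given in the sources used here, so the split between them is uncertain. H2-Eb1 shared no 50-base window with H2-Eb2.

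**Figure D3:**
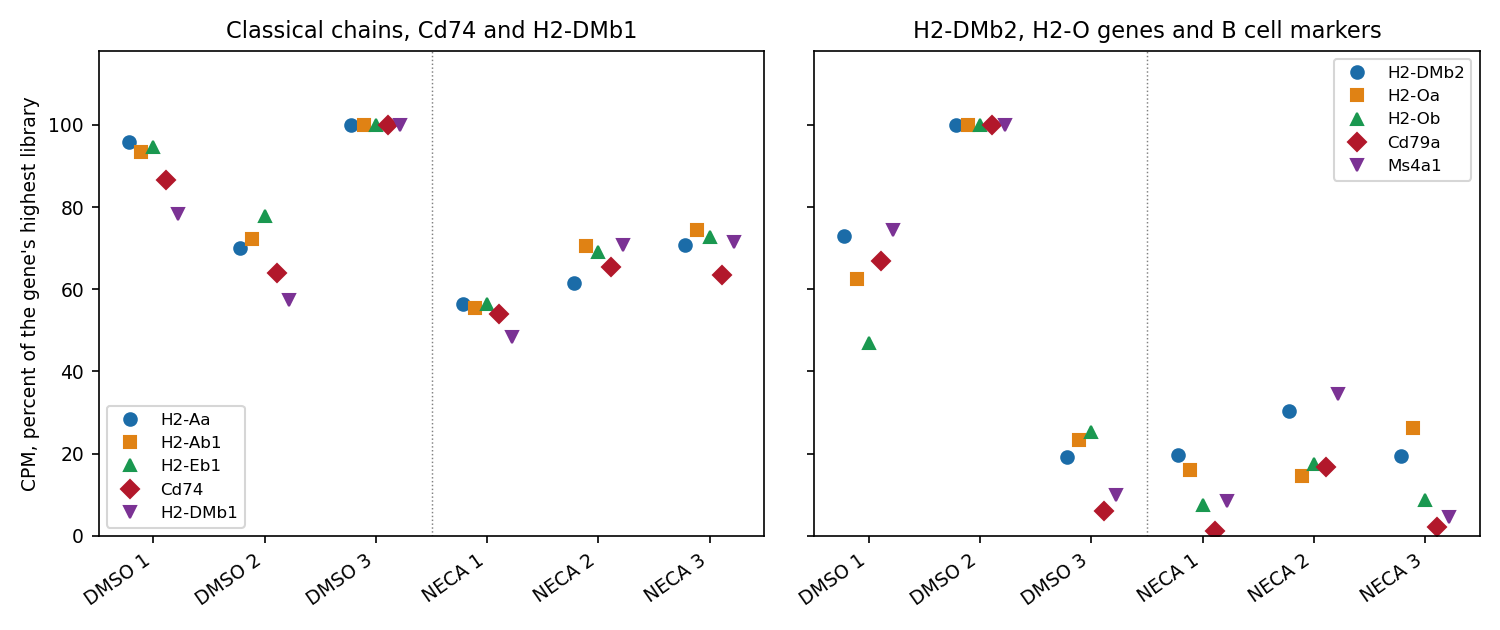
Level of each gene in each library as a percentage of that gene's highest library. The classical chains, Cd74 and H2-DMb1 (left) peak in DMSO replicate 3, and H2-DMb2, H2-Oa, H2-Ob and the B cell genes Cd79a and Ms4a1 (right) peak in DMSO replicate 2 with DMSO replicate 1 next.

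The genes of H2-O, a relative of H2-DM that restrains it and is known mainly from B cells, were likewise highest in DMSO replicate 2, with DMSO replicate 1 next. H2-Ob had 50, 89 and 24 counts in DMSO against 7, 21 and 9 in NECA. Its groups did not overlap, with NECA lower, as in 7.16% of all tested genes. Its log2 fold change was -2.31 (SE 0.59, edgeR adjusted p = 0.738). H2-Oa had 27, 36 and 9 counts in DMSO against 6, 7 and 11 in NECA, a log2 fold change of -1.69 (SE 0.58). The second E beta gene, H2-Eb2, had 15, 16 and 0 counts in DMSO against 0, 5 and 0 in NECA and did not pass the count filter. H2-DMb2 and these 3 genes were thus all highest in DMSO replicates 1 and 2.

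The summed B cell markers were also highest in DMSO replicates 1 and 2. All 12 tested of 14 listed had a fold change below 0 (median -2.34), with summed levels of 63.2 to 139 CPM in DMSO and 42.6 to 49.3 CPM in NECA. Blnk made up most of the sums of NECA replicates 1 and 3, so these sums describe the other markers poorly. It was at 37.3, 37.0 and 38.9 CPM in DMSO and 34.4, 18.3 and 32.0 CPM in NECA, highest in DMSO replicate 3. The B cell receptor component Cd79a had 122, 152 and 10 counts in DMSO against 2, 34 and 4 in NECA, and Ms4a1, which encodes CD20, had 50, 56 and 6 against 5, 26 and 3. The part of B cells in the H2-DMb2, H2-Oa and H2-Ob differences was not tested.

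Macrophage and dendritic cell markers, the other cells known to carry class II, had smaller median fold changes. All 12 macrophage markers had a fold change below 0 (median -0.46), with sums of 708 to 901 CPM in DMSO and 373 to 807 CPM in NECA, the lowest in NECA replicate 2. The mannose receptor Mrc1 was at 27.7, 20.1 and 29.1 CPM in DMSO and 14.8, 18.6 and 17.2 CPM in NECA, the same order of DMSO libraries as in the classical chains. Mrc1 is also among the genes named below for their likeness to those chains, so its order is not a separate result. Adgre1, C1qb, C1qc and Cd68 had this order of DMSO libraries too, and C1qa, Csf1r, Cx3cr1, Lyz2, Itgam, Mertk and Cd14 did not. Of the 10 dendritic cell markers tested of 12 listed, 8 were lower (median -0.16), with sums of 75.9 to 88.1 CPM in DMSO and 71.3 to 74.6 CPM in NECA. Most of each sum was Fscn1, whose groups overlapped, at 57.0, 53.9 and 47.6 CPM in DMSO and 51.8, 46.1 and 48.9 CPM in NECA. Ccr7 had 25, 40 and 1 counts in DMSO against 3, 14 and 1 in NECA, and Batf3 had a fold change above 0. Itgax, which encodes CD11c, was at 13.0, 8.90 and 16.6 CPM in DMSO and 10.9, 12.5 and 10.2 CPM in NECA, and Xcr1 of the cross-presenting subset was at 0 counts in DMSO replicate 2. Epithelial markers summed to 4631 to 6489 CPM in DMSO and 6061, 9338 and 6157 CPM in NECA, and all 8 had a fold change above 0 (median 0.38). NECA replicates 1 and 3 lay inside the DMSO range, and NECA replicate 2, the library that stood apart, lay above it. Of 9 tested T and innate lymphoid markers, of 12 listed, all were lower (median -0.52), with sums of 177 to 228 CPM in DMSO and 165, 54.2 and 159 CPM in NECA, the lowest again in NECA replicate 2, Il22 being at 0 counts in 5 libraries. In these lists 0 markers passed the test adjusted over all genes, and the part of these cells in the class II differences was not tested.

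Ciita (ENSMUSG00000022504, chromosome 16, 10480059 to 10528418), the coactivator, did not separate the groups. It had 233, 93 and 151 counts in DMSO against 89, 245 and 121 in NECA, or 13.0, 6.22 and 9.44 CPM and 5.75, 12.2 and 6.95 CPM. DMSO replicate 1 and NECA replicate 2 were high. Its log2 fold change was -0.20 (SE 0.37, 95% interval -1.05 to 0.65). Leaving out NECA replicate 2 gave -0.59 (SE 0.33), leaving out DMSO replicate 2 gave -0.43 and leaving out NECA replicate 3 gave -0.09, whereas it was 0.072 when DMSO replicate 1, and 0.0049 when NECA replicate 1, was left out. The FPKM ratio of Ciita to H2-Ab1 was 0.0220 in NECA replicate 2 and 0.0110 in DMSO replicate 2, its ends over the 6 libraries. Of the Ciita exons, 3.45% of bases are shared with Dexi on the opposite strand, which was at 10.7 to 16.3 CPM in 5 libraries and 16.8 CPM in NECA replicate 2.

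**Figure D4:**
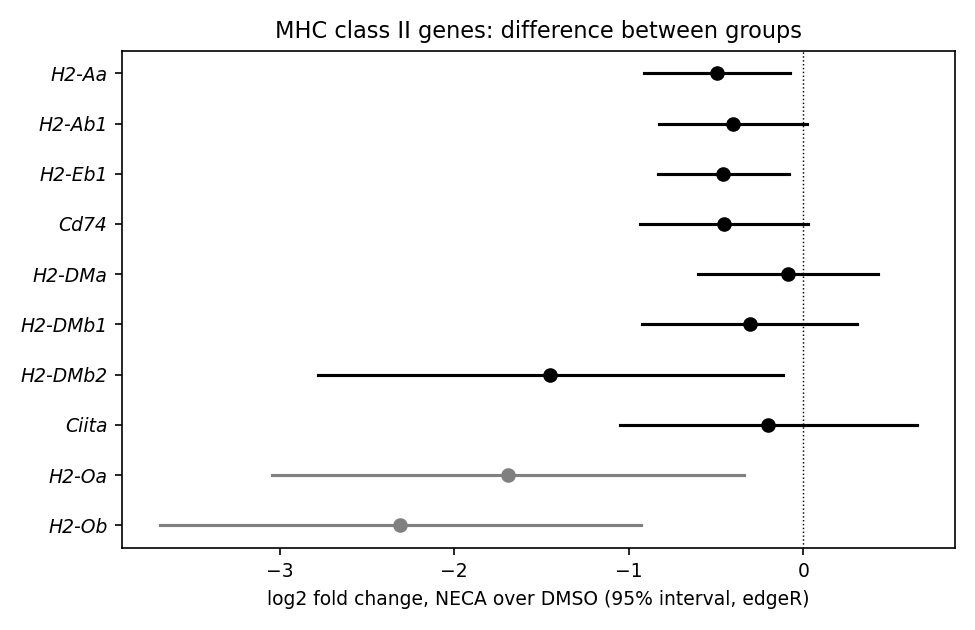
Log2 fold change of NECA over DMSO with its 95% interval (edgeR, 3 libraries per group) for the 8 members in black and H2-Oa and H2-Ob in grey. The 4 abundant genes lie between -0.49 and -0.40 with narrow intervals, and the intervals of H2-Ab1, Cd74, H2-DMa, H2-DMb1 and Ciita include 0.

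Among 14 listed transcription factors that act on class II promoters or on Ciita, 10 were lower, 4 higher and 0 passed the test (median log2 fold change -0.08). Rfx5, the RFX subunit that binds the X box, was at 17.1, 16.3 and 14.3 CPM in DMSO and 13.8, 11.3 and 11.5 CPM in NECA. Its groups did not overlap, with a log2 fold change of -0.38 (SE 0.17). Irf1, an interferon-induced activator of Ciita, was at 173, 174 and 192 CPM in DMSO and 148, 155 and 156 CPM in NECA, also without overlap (-0.23, SE 0.14). Spi1, the myeloid and B cell factor PU.1, differed by -0.41 (SE 0.23) with overlapping groups, and by -0.24 with NECA replicate 1 left out. Rfxap, another RFX subunit, was higher in NECA without overlap (0.17, SE 0.14), and the subunit Rfxank overlapped (-0.13, SE 0.25). Groups were apart with NECA lower in 2 of the 14 and with NECA higher in 1, against 7.16% and 6.49% of all tested genes.

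Of the 11 genes of the interferon-gamma axis, 8 were tested, 4 lower and 4 higher, and 0 passed (median 0.02). Interferon-gamma itself, Ifng, had 6, 0 and 4 counts in DMSO against 0, 5 and 0 in NECA, too few to test. The cytokine Il18 was at 7.53, 4.42 and 14.7 CPM in DMSO and 8.01, 31.3 and 14.9 CPM in NECA (1.03, SE 0.57, or 0.37 with NECA replicate 2 left out and 1.60 with DMSO replicate 3 left out). The signalling inhibitor Socs1 differed by 0.41 (SE 0.39) and by -0.16 (SE 0.25) without NECA replicate 2, where it was at 11.6 CPM against 4.54 to 6.13 CPM elsewhere. With NECA replicate 3 left out Socs1 differed by 0.65.

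The processing genes were lowest in NECA replicate 2, all 9 but Lgmn. Of 9 tested genes for processing and turnover, 6 were lower, 3 higher and 0 passed (median -0.13). Ctss, the cathepsin that trims the invariant chain in antigen-presenting cells, was at 356, 399 and 445 CPM in DMSO and 347, 140 and 388 CPM in NECA. Its log2 fold change was -0.45 (SE 0.36), -0.12 (SE 0.15) with NECA replicate 2 left out and -0.71 with NECA replicate 3 left out. Ctsb, cathepsin B, was at 2096 to 2702 CPM in DMSO and 2156, 1175 and 2525 CPM in NECA (-0.34, SE 0.33, or -0.07 with NECA replicate 2 left out and -0.56 with NECA replicate 3 left out). The asparagine endopeptidase Lgmn was at 587 to 1771 CPM in DMSO and 721 to 2102 CPM in NECA (0.43, SE 0.50). The Lgmn difference ranged from 0.079 with NECA replicate 3 left out and 0.13 with DMSO replicate 1 left out to 0.76 with NECA replicate 2 left out and 0.99 with DMSO replicate 3 left out. Cathepsins and Lgmn are also known from the lysosomes of suckling enterocytes, and which cells carried them here was not tested.

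Partners of presentation at the contact with T cells were lower in mean, again without passing the test. All 8 tested of 9 listed had a fold change below 0 (median -0.54). The costimulatory ligand Cd86 had 42, 46 and 46 counts in DMSO against 18, 27 and 28 in NECA, with groups apart and a 95% interval of the log2 fold change from -1.69 to -0.32 (edgeR adjusted p = 0.738). Cd4, the coreceptor that binds class II, was at 9.54, 7.09 and 10.5 CPM in DMSO and 5.62, 3.79 and 6.49 CPM in NECA, also without overlap (-0.77, SE 0.28). Cd83, which protects surface class II on dendritic cells, differed by -0.53 (SE 0.24) with overlapping groups. Of the 8 tested, 2 had groups apart with NECA lower and 0 with NECA higher, against 7.16% and 6.49% of all tested genes.

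The classical genes also lie among class I presentation genes in the MHC. Of 7 listed neighbours, 5 were lower, 2 higher and 0 passed (median -0.25). The peptide transporter subunit Tap2 was at 45.8, 55.5 and 49.3 CPM in DMSO and 31.9, 34.1 and 35.8 CPM in NECA, with a log2 fold change of -0.56 (SE 0.14). The immunoproteasome subunit Psmb8 was at 113, 120 and 103 CPM in DMSO and 62.8, 90.8 and 101 CPM in NECA (-0.40, SE 0.19, or -0.22 with NECA replicate 1 left out). Both separated the groups, and Brd2 did not (0.13, SE 0.16, or 0.044 with NECA replicate 2 left out and 0.21 with NECA replicate 3 left out). Tap2, Psmb8 and Brd2 were named for having the smallest p of the list. Of the 7, 2 had groups apart with NECA lower and 0 with NECA higher, against 7.16% and 6.49% of all tested genes. Tap1, the partner of Tap2, overlapped, at 121, 123 and 147 CPM in DMSO and 55.6, 234 and 103 CPM in NECA. Psmb9 overlapped too.

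Of 9713 named genes with a mean of at least 10 CPM, 6 followed the mean standardised log2 level of H2-Aa, H2-Ab1, H2-Eb1 and Cd74 most closely over the 6 libraries. They were Lum, a proteoglycan of connective tissue, Gatad2b, Mrc1, Prdx3, Tmem168 and Ctps2, with Pearson r from 0.956 to 0.980. Among the members outside that profile, r was 0.896 for H2-DMb1, 0.587 for Ciita, 0.369 for H2-DMa and 0.184 for H2-DMb2. Among the genes nearest to H2-DMb2 were Mib2, Parva, Ramp1, Hivep2 and Mgme1, with r from 0.957 to 0.980. With 6 points and 9713 candidates these values only describe likeness, and all points share the same libraries.

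**Figure D5:**
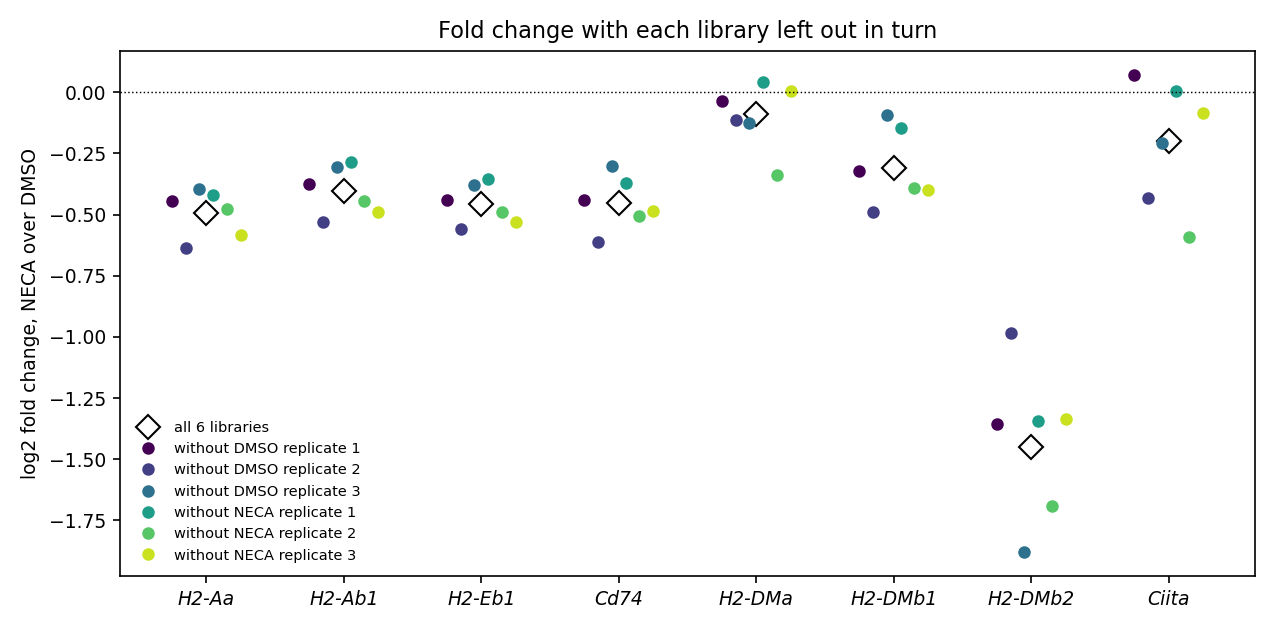
Log2 fold change of each member with all 6 libraries (open diamonds) and with each library left out (points). The classical chains and Cd74 stay between -0.64 and -0.29, H2-DMb2 spans -1.88 to -0.98, and H2-DMa and Ciita reach both sides of 0.

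The fold changes of the 4 abundant genes stayed below 0 whichever library was left out. They ran from -0.64 to -0.40 for H2-Aa, -0.53 to -0.29 for H2-Ab1, -0.56 to -0.35 for H2-Eb1 and -0.61 to -0.30 for Cd74 over the 6 fits. These differences were smallest without DMSO replicate 3 or NECA replicate 1 and largest without DMSO replicate 2. At an unadjusted p under 0.05 stood 4 of 8 members without DMSO replicate 2 (2.04% of all genes were so and lower) and 4 without NECA replicate 2 (3.16%). There were 2 without NECA replicate 3 (2.66%), 1 with DMSO replicate 3 left out (4.25%), 0 with DMSO replicate 1 left out (2.04%) and 0 with NECA replicate 1 left out (2.87%). In none of these fits did a member pass, the adjusted p being at least 0.637.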

How the data were processed

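RNA-seq of 6 intestine libraries, 3 per group as the titles give them, was analysed. SMARTer cDNA was amplified by PCR, fragmented and read from both ends on a NovaSeq, per the labels' protocols. The authors deposited, per the file headers, a whole-number count per gene and an FPKM value. FPKM divided by count was a gene constant times a library constant (relative deviation up to 1.33e-07). Per the submitters' processing notes HISAT, StringTie, edgeR, mm10 and GRCm38 were used, with no version or setting in the sources used here.

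Counts were filtered with filterByExpr (minimum count 10, minimum total 15), which left 15847 genes and all 8 members, scaled with TMM and tested with edgeR 4.0.16 (glmQLFit and glmQLFTest, two-sided, Benjamini-Hochberg over all genes, threshold 0.05) in R 4.3.3. Levels are TMM-normalised CPM, and FPKM where genes are compared. SE is the absolute fold change over the square root of F. The script was tested on simulated data. Positions are from GENCODE M21, which held 99.77% of the identifiers. March1 and March8 were matched by identifier, their names being dates in the tables. Alternatives were DESeq2 1.42.0 and its size factors, limma 3.58.1 on log2(FPKM + 0.1), other filters, a replicate block and each library left out. Members and lists were chosen with earlier results of these data known. Named pathway genes are up to 3 per list with the smallest p, plus Rfx5, Irf1 and Ctss, and a few genes are not reported here. H2-Ea-ps, H2-Eb2, Ifng, Itgax, Xcr1, Ccr7, Batf3, Fscn1, Cd79a, Ms4a1, Blnk, Il22, Rfxap, Rfxank, Tap1, Psmb9 and the macrophage markers were named to describe a list. Counting without molecular identifiers may understate the error of low genes, which was not tested.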

Additional observations from a re-analysis of the deposited data

How the results depend on the processing

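At an adjusted p under 0.05, edgeR's quasi-likelihood test called 0 genes with DESeq2 size factors, with a filter of 5 CPM in 3 libraries and without each library in turn (0 to 0), and 2 genes without a filter. At that threshold limma on log2(FPKM + 0.1) called 0 genes and DESeq2's own test 11, and 0 of the called genes were members. At an unadjusted p under 0.05 edgeR's test with all libraries held 868 genes. No pairing by replicate number was seen: same-numbered libraries had correlations of 0.009, -0.19 and -0.02 between their deviations from the group means. With 3 libraries per group these values cannot tell whether the design was paired. With the replicate block 0 genes were called, and the members' median was -0.42 against -0.43.

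Of 296 alternative fold changes of members and named pathway genes, 291 kept their direction and 0 became significant. The 5 of opposite sign were Ciita at 0.072 without DMSO replicate 1 and 0.0049 without NECA replicate 1, H2-DMa at 0.042 without NECA replicate 1 and 0.0032 without NECA replicate 3, and Socs1 at -0.16 without NECA replicate 2. With each library left out in turn Ciita ran from -0.59 to 0.072, H2-DMa from -0.34 to 0.042 and Socs1 from -0.16 to 0.65. The cause was not tested. H2-DMb2 did not pass the stricter filter. With limma its fold change was -1.10, on a scale that understates low genes. Depth limits H2-DMb2, H2-Oa and H2-Ob, with under 100 counts in every library.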
